A study of Mus musculus with 11 samples.

Results

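The Bcl2 family sets whether a cell enters the mitochondrial route of apoptosis, and 10 of its genes were followed here in the end buds and ducts of the pubertal mouse mammary gland. They were taken by symbol from a list of family members, all 10 were present among the 27179 genes counted, and all 10 passed the filter on low counts that left 17370 genes tested. In this family the pro-survival proteins (Bcl2, Bcl2l1, which encodes Bcl-xL, and Mcl1) hold the effectors Bax and Bak1 in check. The BH3-only proteins (Bcl2l11, which encodes Bim, and Bid, Bmf, Pmaip1, which encodes Noxa, and Bbc3, which encodes Puma) relieve that check or act on the effectors, which then open the outer mitochondrial membrane and release cytochrome c. In the pubertal gland the solid inner mass of the terminal end bud (TEB) is hollowed into a lumen, a process in which inner cells die and in which Bim is known to take part. Much of the activity of the family is set after transcription, by cleavage of Bid, by phosphorylation of Bim and by turnover of Mcl1, and messenger RNA levels carry none of this.

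RNA was measured in 4 groups of sorted epithelial cells: ductal basal cells (3 libraries), TEB basal cells (3), ductal luminal cells (2, labelled replicates 1 and 3) and TEB luminal cells (3). All came from untreated female mice aged 5 weeks on a C57BL/6 background that carried an E-cadherin-GFP knock-in allele, so the reporter allele was shared by every group. TEBs and ducts were micro-dissected under the GFP signal, cells negative for the blood and endothelial markers Ter119, CD31 and CD45 and positive for CD29 and CD24 were sorted as GFP-high (luminal) or GFP-low (basal), and each library was made from at least 2 pooled mice. The values are thus averages over each sorted pool, the luminal gate does not separate the luminal subtypes, and p-values measure the spread between pools. Because the RNA was bulk RNA, fewer cells expressing a gene and less RNA per cell cannot be told apart.

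Libraries held 27989137 to 49221436 counts. Marker sums are given in CPM, here counts scaled to library size without TMM factors. The basal markers were Krt5, Krt14, Krt17, Trp63, Acta2 and Myh11. They summed to 3244 to 17589 CPM in the 6 basal libraries and to 15.8 to 182 CPM in the 5 luminal ones. Luminal markers (Krt8, Krt18, Krt19, Elf5, Esr1, Pgr and Prlr) summed to 174 to 530 CPM in basal and to 9855 to 19250 CPM in luminal libraries, so the cell labels held in every library. Genes of the mitochondrial chromosome took 4.34% to 17.8% of counts in 9 libraries but 37.5% in TEB basal replicate 1 and 28.5% in ductal luminal replicate 3. Values without these 2 libraries are given beside the results that moved most when they were left out. Leaving them out leaves 1 ductal luminal library, so differences from ductal luminal cells then rest on 1 library in that group.

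The members lie on 7 autosomes in the mm10 assembly, and all are protein coding. Bcl2 (Entrez gene 12043, chr1:106538176-106714290, minus strand), Bcl2l1 (12048, chr2:152758732-152833803, minus) and Mcl1 (17210, chr3:95656944-95663179, plus) are the pro-survival genes. Bax (12028, chr7:45461695-45466903, minus) and Bak1 (12018, chr17:27019812-27028627, minus) are the effectors. The BH3-only genes are Bcl2l11 (12125, chr2:128126038-128162547, plus), Bid (12122, chr6:120893119-120917062, minus), Bmf (171543, chr2:118528757-118549686, minus), Pmaip1 (58801) and Bbc3 (170770, chr7:16308398-16318334, plus). Counts are per gene, so long and short Bcl-x, or the Bim isoforms, are summed. The library kit does not mark strand, and 628 exonic bases of Bid lie opposite exons of Bcl2l13, 614 of Bak1 opposite Ggnbp1 and 558 of Bcl2 opposite the antisense gene D630008O14Rik. A further 192 exonic bases of Bax lie on the same strand as the gene model Gm45808. Bcl2l13 and Ggnbp1 are counted here too, so reads from the stretches they share cannot be assigned to a single partner with certainty. D630008O14Rik and Gm45808 were not found among the genes counted, so reads from their shared stretches may be counted for Bcl2 and Bax.

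Bcl2l11 and Bcl2l1 differed between basal and luminal cells in opposite directions in both structures. Both have further annotated starts, and a single promoter window of each gene is printed. Each is the 250 bases before an annotated RefSeq start (GRCm38.p6, the mm10 assembly), 5′ to 3′ on the strand of the gene, with no annotated exon inside it. Capitals mark matches, on either strand, to any of 4 letter patterns: GGGCGG (the GC box bound by Sp factors), GTAAACA (a forkhead site), CACGTG (an E box) and TGACTCA (an AP-1 site).
Bcl2l11 (chr2:128125788-128126037, plus strand): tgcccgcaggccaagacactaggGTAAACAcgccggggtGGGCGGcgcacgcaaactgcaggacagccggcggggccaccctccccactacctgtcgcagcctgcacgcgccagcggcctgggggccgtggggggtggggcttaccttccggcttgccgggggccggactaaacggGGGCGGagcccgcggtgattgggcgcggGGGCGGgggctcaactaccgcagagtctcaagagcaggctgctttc
Bcl2l1 (chr2:152831729-152831978, minus strand): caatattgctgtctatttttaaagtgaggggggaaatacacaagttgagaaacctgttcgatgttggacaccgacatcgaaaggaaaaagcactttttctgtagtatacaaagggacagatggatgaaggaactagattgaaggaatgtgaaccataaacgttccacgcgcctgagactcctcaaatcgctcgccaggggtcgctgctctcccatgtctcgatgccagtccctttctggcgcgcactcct

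The printed Bcl2l11 window is 72% G and C and holds 3 GC boxes and 1 forkhead pattern, with no overlap between the matches. The window of another Bcl2l11 start (chr2:128127325-128127574), also without an annotated exon, is 73.2% G and C. It holds 2 GC boxes and no forkhead pattern. The printed Bcl2l1 window is 47.6% G and C and holds none of the patterns, beside a median of 52.4% G and C over all annotated windows. The other Bcl2l1 windows contain annotated exons and hold none of the patterns either. Over 16 windows of 9 members (no window was found for Pmaip1), the GC box was in 9 windows of 6 genes, against 32.7% of all 32851 windows. GTAAACA was in 2 windows, of Bcl2l11 and Bbc3 (3.17% of all windows), CACGTG in 2 windows, of Bax and Bbc3 (6.02%), and TGACTCA in 0 (4.46%). These are matches of letters and not sites of binding.

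Levels of single genes in CPM are scaled to library size with TMM factors. Levels of different genes are compared as RPKM (this CPM per kilobase of the exonic length deposited with the counts). Mcl1 and Bax held ranks 1 and 2 in all 11 libraries and together made up 64.0% to 75.1% of the summed RPKM of the 10 genes. Bcl2l1 and Bak1 ranked 3 to 5 in each library, Bcl2l11 ranked 3 to 7, and Bid ranked 4 to 10. Bcl2, Bmf, Pmaip1 and Bbc3 were the low members, with no library above 9.60 RPKM. The highest library exceeded the lowest by 2.25-fold for Mcl1, 2.43-fold for Bcl2l1 and 3.05-fold for Bcl2l11, and by 72.8-fold for Bbc3.

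**Figure D1:**
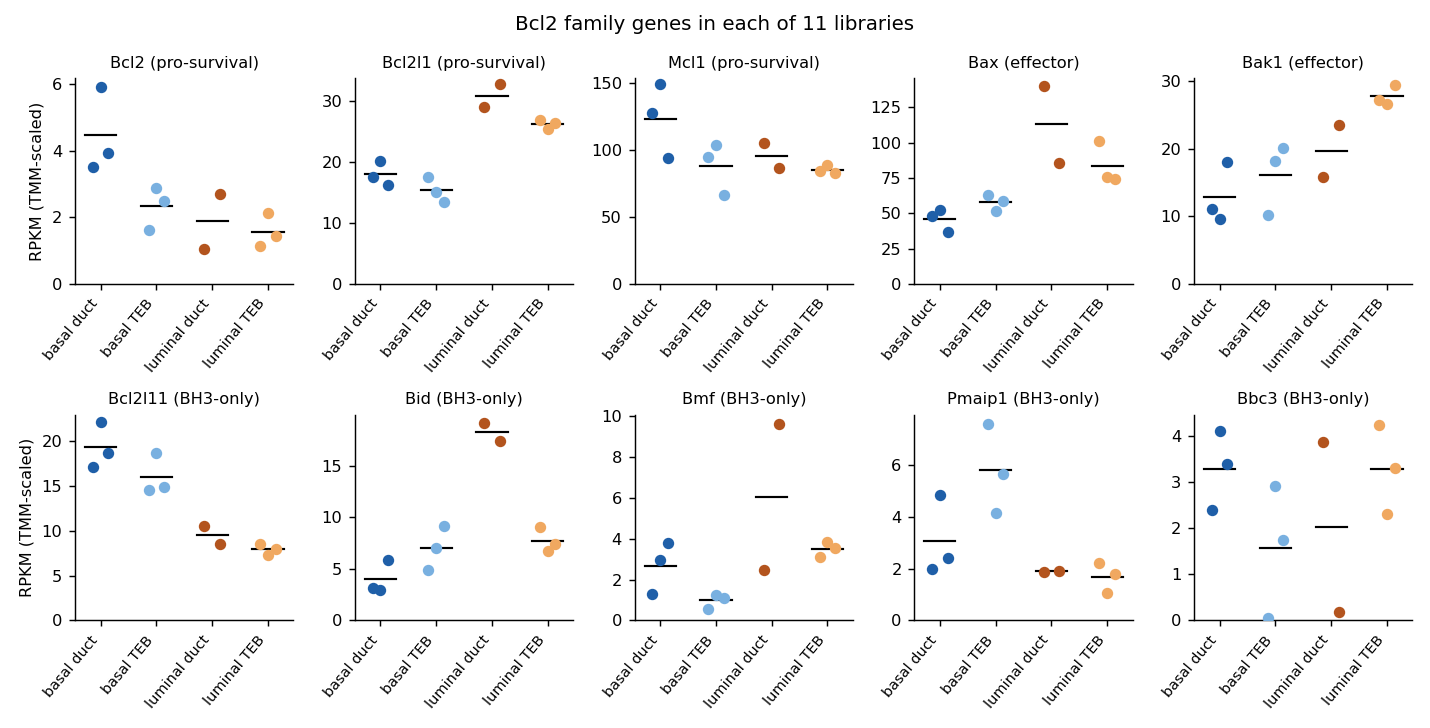
Level of each of the 10 genes in the 11 libraries, as RPKM, with 1 panel per gene on its own linear axis. Each point is 1 library, coloured by group. Bcl2l11 is higher in the 6 basal libraries and Bcl2l1 in the 5 luminal ones, without overlap, and the 2 lowest Bbc3 points are TEB basal replicate 1 (0.0584 RPKM) and ductal luminal replicate 3 (0.187 RPKM).

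Between basal and luminal cells, 4 of the 10 genes differed in ducts and 4 in TEBs, and Bcl2l11 and Bcl2l1 did so in both. Bcl2l11 was higher in basal cells by about 1 log2 unit in each structure, and Bcl2l1 was lower in basal cells by 0.78 in ducts and 0.77 in TEBs. Bax and Bid were lower in ductal basal cells, while in TEBs Pmaip1 was higher and Bmf lower in basal cells. The test is edgeR's quasi-likelihood test with 1 model over the 4 groups, and a gene was called at a Benjamini-Hochberg adjusted p (FDR) below 0.05 over the 17370 genes. Of all genes tested, 22.3% were called in ducts (12.6% higher and 9.71% lower in basal cells), where 1 member was higher and 3 were lower. In TEBs 25.1% were called (13.2% higher and 11.8% lower), where 2 members were higher and 2 were lower. The median absolute log2 difference of the members was 0.90 in ducts and 0.78 in TEBs, against 0.92 and 0.87 for all genes tested. In ducts 6 of 10 members had basal and luminal libraries that did not overlap (46% of all genes) and 5 an unadjusted p below 0.05 (35.1%), and in TEBs 6 of 10 did not overlap (49.8%) and 6 had an unadjusted p below 0.05 (36.2%). Summed fibroblast markers (Pdgfra, Col1a1, Dcn and Lum, all 4 detected in each group) were at 109 to 475 CPM in basal and 6.10 to 65.6 CPM in luminal libraries, and their part in the differences was not tested.

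Bcl2l1, a pro-survival gene, was at 17.5, 20.2 and 16.2 RPKM in ductal basal cells, 17.6, 15.1 and 13.5 in TEB basal cells, 29.0 and 32.8 in ductal luminal cells, and 26.9, 25.5 and 26.4 in TEB luminal cells. The lowest luminal library stood above the highest basal library, at 25.5 against 20.2 RPKM. The log2 difference of basal minus luminal cells was -0.78 (SE 0.19, FDR 0.0113) in ducts and -0.77 (SE 0.17, FDR 0.00626) in TEBs. The ductal call was lost without composition scaling of the library sizes (FDR 0.122), and also without ductal luminal replicate 3. The ductal difference was -0.69 without ductal luminal replicate 3 and -0.69 without both libraries of high mitochondrial share, each with 1 ductal luminal library left. Within luminal cells the ductal libraries were above the TEB libraries by a small margin, at 29.0 and 32.8 against 25.5 to 26.9 RPKM, a difference that was not called (TEB minus duct -0.24). It was -0.13 without the libraries of high mitochondrial share and turned sign without composition scaling (0.16).

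Bcl2 itself was at 3.51, 5.92 and 3.92 RPKM in ductal basal cells, 1.62, 2.87 and 2.48 in TEB basal cells, 1.06 and 2.70 in ductal luminal cells, and 1.13, 2.13 and 1.44 in TEB luminal cells. All 3 ductal basal libraries lay above the other 8, which ran from 1.06 to 2.87 RPKM, and the other 3 groups overlapped. Basal minus luminal, the log2 difference in ducts was 1.25 (SE 0.47, FDR 0.0815), which did not pass by edgeR's quasi-likelihood test. It passed by the Wald test of DESeq2 (1.22, FDR 0.0410). By edgeR it was 2.07 without ductal luminal replicate 3, which held 2.70 RPKM against 1.06 in replicate 1. It was also 2.07 without both libraries of high mitochondrial share, and each setting leaves 1 ductal luminal library. In TEBs the difference was 0.57 (FDR 0.344).

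Mcl1, whose protein is short-lived, was at 128, 149.6 and 93.9 RPKM in ductal basal cells, 94.7, 104 and 66.5 in TEB basal cells, 106 and 86.3 in ductal luminal cells, and 84.3, 88.6 and 83.0 in TEB luminal cells. The 4 groups overlapped in all 3 neighbouring pairs of their order by mean, from ductal basal (124 RPKM) through ductal luminal (96.0) and TEB basal (88.3) to TEB luminal cells (85.3). Basal minus luminal, its log2 difference was 0.36 (SE 0.24, FDR 0.306) in ducts and 0.23 without the libraries of high mitochondrial share. In TEBs it was 0.05 (SE 0.21, FDR 0.898) and turned sign without composition scaling (-0.36).

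Bax, an effector, was at 48.3, 52.6 and 37.0 RPKM in ductal basal cells, 62.8, 51.7 and 58.9 in TEB basal cells, 140.4 and 85.7 in ductal luminal cells, and 101, 75.5 and 74.0 in TEB luminal cells. In ducts both luminal libraries stood above all 3 basal libraries, and the log2 difference was -1.30 (SE 0.25, FDR 0.00263), between -1.61 and -0.90 over the 19 alternative settings and called in each. In TEBs the luminal libraries (74.0 to 101 RPKM) were again above the basal ones (51.7 to 62.8 RPKM), but the difference of -0.53 (SE 0.23, FDR 0.113) did not pass. It passed without composition scaling (-0.97, FDR 0.0372). Bak1, the second effector, was at 11.1, 9.54 and 18.003 RPKM in ductal basal cells, 10.2, 18.1 and 20.0 in TEB basal cells, 15.8 and 23.5 in ductal luminal cells, and 27.2, 26.6 and 29.4 in TEB luminal cells. Its TEB luminal libraries were the 3 highest of all 11. The log2 difference of basal minus luminal cells was -0.78 (SE 0.31, FDR 0.0860) in TEBs and -0.61 (FDR 0.224) in ducts, where the groups overlapped. Without the libraries of high mitochondrial share it was -0.55 (FDR 0.154) in TEBs and -0.29 in ducts, with 1 ductal luminal library left. With single libraries left out the ductal value ran from -0.93 to -0.29. Ggnbp1, on the opposite strand of Bak1, differed by 0.04 in TEBs (FDR 0.969) and by -0.94 in ducts (FDR 0.272).

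Bcl2l11, the Bim gene, was at 17.2, 22.1 and 18.6 RPKM in ductal basal cells, 14.5, 18.7 and 14.8 in TEB basal cells, 10.5 and 8.53 in ductal luminal cells, and 8.51, 7.27 and 8.001 in TEB luminal cells. The lowest basal library (14.5 RPKM) was above the highest luminal library (10.5 RPKM). Basal minus luminal, the log2 difference was 1.02 in ducts (SE 0.20, FDR 0.00345) and 1.02 in TEBs (SE 0.18, FDR 0.00120). Each held under 18 of 19 alternatives and was lost only without composition scaling, at an FDR of 0.0524 in ducts and 0.170 in TEBs.

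Bid, whose protein links the death receptors to mitochondria once cleaved by caspase-8, was at 3.12, 2.94 and 5.90 RPKM in ductal basal cells, 4.94, 7.003 and 9.21 in TEB basal cells, 19.1 and 17.4 in ductal luminal cells, and 9.05, 6.79 and 7.44 in TEB luminal cells. The 2 ductal luminal libraries stood apart from the other 9, which reached no more than 9.21 RPKM. In ducts the log2 difference of basal minus luminal cells was -2.20 (SE 0.41, FDR 0.00216), between -2.59 and -2.02 over the 19 alternatives and called in each. In TEBs the basal and luminal libraries overlapped and the difference was -0.14 (SE 0.37, FDR 0.832), and 0.057 without the libraries of high mitochondrial share. Bcl2l13, whose exons lie opposite those of Bid, differed by -0.44 in ducts (FDR 0.172) and by -0.73 in TEBs (FDR 0.0165).

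Bmf, a BH3-only gene tied to loss of attachment, was at 1.30, 2.96 and 3.79 RPKM in ductal basal cells, 0.586, 1.24 and 1.12 in TEB basal cells, 2.46 and 9.60 in ductal luminal cells, and 3.13, 3.86 and 3.54 in TEB luminal cells. In TEBs all 3 luminal libraries were above all 3 basal libraries, and the log2 difference of basal minus luminal cells was -1.83 (SE 0.56, FDR 0.0303). The call held under 14 of 19 alternatives and was lost when any of 5 single TEB libraries was left out, at an FDR of 0.0643 to 0.0831. Without both libraries of high mitochondrial share the difference was -1.57 (FDR 0.0219). In ducts the difference was -1.16 (SE 0.59, FDR 0.184) and rested on ductal luminal replicate 3, the highest Bmf library of all. Without that library it was 0.13, and without ductal luminal replicate 1 it was -1.84, each with 1 ductal luminal library left.

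Pmaip1, the Noxa gene, was at 2.01, 4.85 and 2.40 RPKM in ductal basal cells, 7.61, 4.16 and 5.68 in TEB basal cells, 1.89 and 1.91 in ductal luminal cells, and 2.20, 1.06 and 1.79 in TEB luminal cells. In TEBs the lowest basal library (4.16 RPKM) was above the highest luminal library (2.20 RPKM), and the log2 difference of basal minus luminal cells was 1.79 (SE 0.53, FDR 0.0271). The call was lost when TEB basal replicate 1 or 3, or any TEB luminal replicate, was left out (FDR 0.0585 to 0.124), and without composition scaling (FDR 0.115). Without both libraries of high mitochondrial share it was 1.54 (FDR 0.0403). In ducts the difference was 0.70 (FDR 0.425), although the 3 basal libraries were above both luminal ones.

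**Figure D2:**
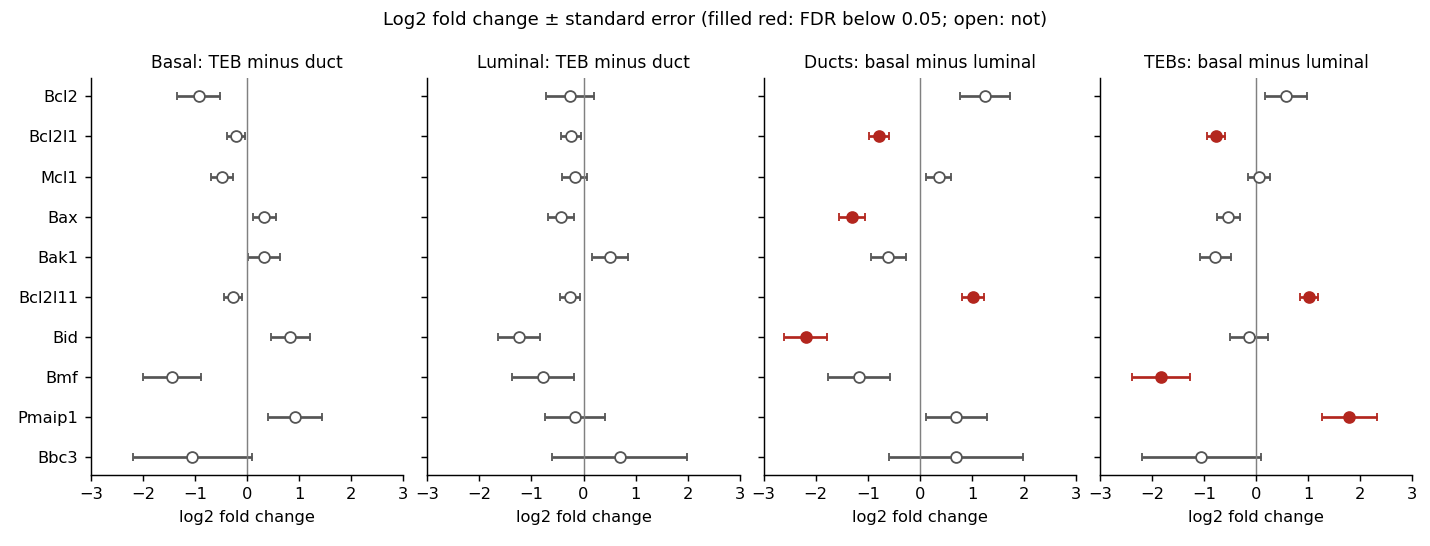
Log2 difference of each gene with its standard error (bars) in 4 comparisons, filled red at an FDR below 0.05 by edgeR's quasi-likelihood test and open otherwise. The comparisons of TEB with duct show open points only, and Bcl2l11 and Bcl2l1 are filled on opposite sides of 0 in both comparisons of basal with luminal cells.

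The question set by lumen formation is whether the family differs between TEB and duct within a cell type. In basal cells 0 of the 10 genes were called by edgeR (1.32% of all genes were), and 4 of 10 had an unadjusted p below 0.05 (14.5% of all genes did). In luminal cells 0 of 10 were called (1.41% of all genes), with 1 of 10 at an unadjusted p below 0.05 (16.6% of all genes). The median absolute log2 difference of the members was 0.66 in basal and 0.35 in luminal cells, against 0.49 and 0.58 for all genes tested. A difference that misses the threshold is not shown to be absent, and the luminal duct group had 2 libraries.

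In basal cells, Bmf and Bcl2 were lower in every TEB library than in every duct library, and these 2 of 10 were the members without overlap (20.8% of all genes did not overlap). Bmf ran from 0.586 to 1.24 RPKM in TEB and from 1.30 to 3.79 RPKM in duct, with a log2 difference of -1.44 (SE 0.55, FDR 0.267). Bcl2 differed by -0.93 (SE 0.41, FDR 0.326). The other members with an unadjusted p below 0.05 were Mcl1, at -0.49 (SE 0.21, FDR 0.329), and Bid, at 0.82 (SE 0.37, FDR 0.337). Without the libraries of high mitochondrial share the values were -1.17 for Bmf, -0.72 for Bcl2, -0.53 for Mcl1 and 1.03 for Bid, and 0 were called. Summed basal markers were at 15365 to 17589 CPM in ductal and 3244 to 9468 CPM in TEB basal libraries, and summed fibroblast markers at 306 to 475 and 109 to 264 CPM. These sums are without TMM factors, and mitochondrial genes took 37.5% of the counts of TEB basal replicate 1. The part of these shifts in the family differences was not tested.

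In luminal cells, Bid was at 6.79 to 9.05 RPKM in TEB and at 17.4 and 19.1 RPKM in duct. The log2 difference of -1.24 (SE 0.41) had an FDR of 0.156 by edgeR's quasi-likelihood test and of 0.0203 by the Wald test of DESeq2 (-1.30). Without ductal luminal replicate 3 and TEB basal replicate 1, which leaves 1 ductal luminal library, it was -1.29. Bid, Bcl2l1, Bcl2l11 and Bak1 were the 4 of 10 members whose TEB and duct libraries did not overlap, beside 43.7% of all genes, in a comparison where 1 group has 2 libraries. Bak1 was the one of these with a positive log2 difference, 0.50 (FDR 0.486), and 0.83 without the libraries of high mitochondrial share. For Bcl2l11 the difference was -0.26, and it turned to 0.11 without composition scaling.

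Whether the TEB difference itself differed between basal and luminal cells was tested as an interaction. Bid had the smallest p of the 10 genes, with a TEB minus duct difference of 0.82 in basal and -1.24 in luminal cells. The interaction was 2.06 log2 units (SE 0.55, FDR 0.138), between 1.57 and 2.46 over the alternatives, and did not pass. It passed by edgeR's likelihood ratio test (FDR 0.0271) and by DESeq2 (FDR 0.00635). Bax followed with 0.77 (SE 0.34, FDR 0.321). These 2 of 10 had an unadjusted p below 0.05, against 14.7% of all genes, and 0 of 10 were called, against 0.443% of all genes.

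Ratios between members within a library need no scaling between libraries. The 6 ratios computed were chosen after the levels were seen and are descriptions only, and 4 are given. Per unit length, Bcl2l11 and Bcl2l1 were close to parity in basal cells, with Bcl2l11 at 0.979 to 1.15 times Bcl2l1 in duct and 0.825 to 1.23 times in TEB. In luminal cells Bcl2l11 was at 0.260 to 0.361 times Bcl2l1 in duct and 0.285 to 0.316 times in TEB. The 6 basal and 5 luminal libraries did not overlap in this ratio, in which the TEB and duct libraries of each cell type did. Bid over Bcl2l11 separated the 4 groups, from 0.133 to 0.317 in ductal basal cells and 0.340 to 0.621 in TEB basal cells to 0.929 to 1.06 in TEB luminal cells and 1.82 to 2.04 in ductal luminal cells, with no overlap. Mcl1 was at 2.54 to 2.84 times Bax in ductal basal cells, 1.13 to 2.01 times in TEB basal cells, 0.753 and 1.01 times in ductal luminal cells and 0.833 to 1.17 times in TEB luminal cells. Ductal basal cells stood above the other groups in Mcl1 over Bax. Mcl1 over Bcl2l1 ran from 5.79 to 7.41 in ductal basal and 4.94 to 6.85 in TEB basal cells, above 2.63 to 3.64 in ductal luminal and 3.13 to 3.48 in TEB luminal cells.

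**Figure D3:**
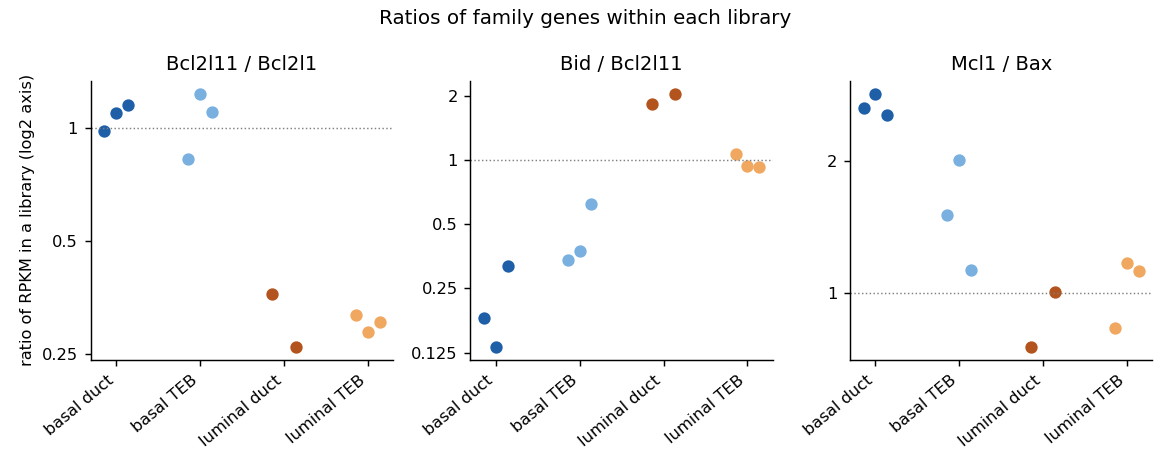
Ratios of RPKM between members within each library, with 1 point per library by group and a logarithmic ratio axis. Bcl2l11 over Bcl2l1 lies between 0.825 and 1.23 in the basal libraries and between 0.260 and 0.361 in the luminal ones.

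Bbc3, the Puma gene, a target of p53, was at 2.39, 4.11 and 3.40 RPKM in ductal basal cells, 0.0584, 2.92 and 1.76 in TEB basal cells, 3.88 and 0.187 in ductal luminal cells, and 4.25, 2.31 and 3.32 in TEB luminal cells. In 9 libraries it lay between 1.76 and 4.25 RPKM. The other 2, TEB basal replicate 1 with 2 counts (exact Poisson 95% interval 0.242 to 7.22) and ductal luminal replicate 3 with 9 counts (4.12 to 17.1), are the libraries with the highest mitochondrial share. In CPM they were at 0.115 and 0.370, against 3.47 to 8.41 in the rest, where counts ran from 124 to 375. Of all genes tested, 837 (4.82%) were likewise lower in both of these libraries than in each of the other 9. They also had the fewest genes with a count, 13302 and 14500 against 15617 to 18269 in the other 9. Of the genes tested, 25.5% and 19.2% were at 0 in them, against 3.48% to 13.8% in the other 9. The part of this in the Bbc3 values was not tested. Intervals cover counting error only. The log2 differences for Bbc3 were -1.06 (TEB minus duct, basal; SE 1.14, FDR 0.727), 0.69 (luminal; SE 1.29, FDR 0.832), 0.69 (basal minus luminal, ducts; FDR 0.744) and -1.05 (TEBs; SE 1.14, FDR 0.555). Without the 2 libraries they were -0.49, -0.22, -0.23 and -0.50, and the lowest FDR was 0.481. Bmf was extreme in the same libraries but in opposite directions, with its lowest value in TEB basal replicate 1 (2.71 CPM) and its highest in ductal luminal replicate 3 (44.5 CPM). Pmaip1 was also highest of all in TEB basal replicate 1 (20.2 CPM, against at most 15.1 in the other 9). Bcl2l1 was highest in ductal luminal replicate 3 (77.7 CPM, against at most 68.9 in the other 9). For each member except Bbc3, the range of values in these 2 libraries overlapped that of the other 9.

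**Figure D4:**
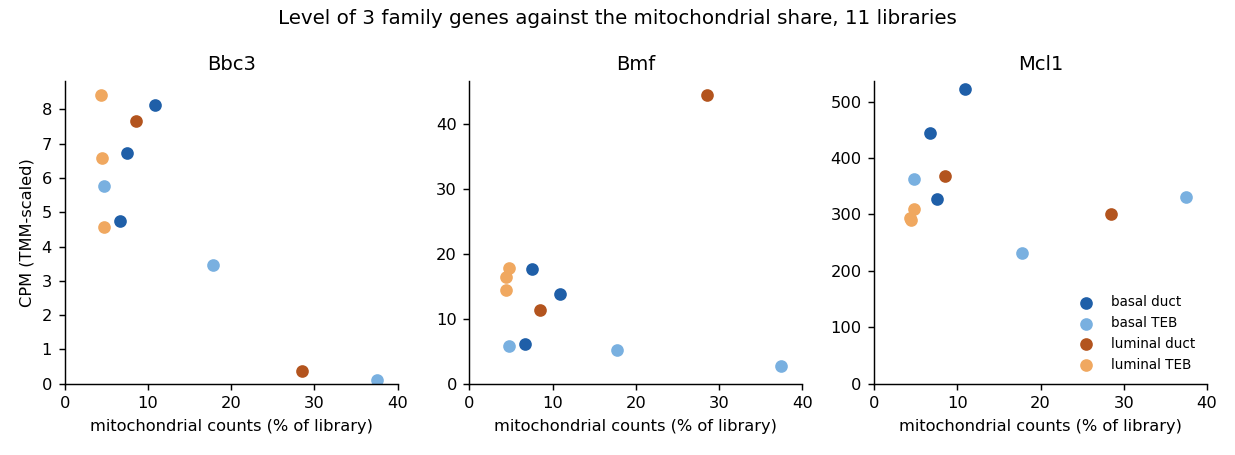
CPM of Bbc3, Bmf and Mcl1 (the most abundant pro-survival gene) against the share of counts on mitochondrial genes, with 1 point per library coloured by group. The 2 libraries above 25% hold the lowest Bbc3 values (0.115 and 0.370 CPM) and both extremes of Bmf (2.71 and 44.5 CPM).

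Around the 10 members, 8 lists of other apoptosis genes (85 genes, 79 tested) were read from the same fit. Between TEB and duct 2 genes of 79 were called in basal cells and 2 in luminal cells, beside 1.32% and 1.41% of all genes tested. In basal cells Birc5, which encodes survivin and also serves in mitosis, was higher in TEB (1.48, FDR 0.0415), at 6.94 to 8.90 against 1.76 to 4.21 RPKM. Mapk3, which encodes the kinase ERK1, was lower in TEB (-0.93, FDR 0.0299), at 22.7 to 30.3 against 45.7 to 53.9 RPKM. In luminal cells Apaf1, the scaffold of the apoptosome, was higher in TEB (1.26, FDR 0.0468), at 3.86 to 4.87 against 1.76 and 1.91 RPKM. The hypoxia-induced gene Bnip3 was lower in TEB (-2.93, FDR 0.0403), at 0.812 to 2.54 against 5.85 and 16.3 RPKM. The calls held under 9 (Birc5), 11 (Mapk3), 5 (Apaf1) and 9 (Bnip3) of the 19 alternatives, and each was lost on leaving out any of 7 to 10 single libraries (FDR up to 0.176). For the interaction 0 of 79 were called. Without the libraries of high mitochondrial share 3 genes were called in basal cells.

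Between basal and luminal cells 24 of the 79 genes were called in ducts (10 higher and 14 lower in basal cells) and 33 in TEBs (13 higher and 20 lower), with 18 called in both. Over all genes tested 22.3% were called in ducts and 25.1% in TEBs. Without the libraries of high mitochondrial share 35 were called in TEBs (16 higher and 19 lower). The median log2 difference over the 79 was -0.0036 in ducts and -0.12 in TEBs, against 0.08 and 0.04 for all genes tested. Among 7 tested multidomain relatives of the Bcl2 family, Bok, an effector-like gene, was higher in basal cells (3.30 in ducts, 1.91 in TEBs). Without the libraries of high mitochondrial share, with 1 ductal luminal library left, Bok differed by 5.45 in ducts. Its TEB call was lost on leaving out any of 4 single TEB libraries (FDR 0.0572 to 0.0891). Bcl2l14 was lower (-5.44 and -4.46), with 0 to 121 counts in basal libraries against 1232 to 1948 in luminal ones, a call lost in TEBs without TEB basal replicate 2 (FDR 0.0531). Bcl2l2, the pro-survival Bcl-w gene, was lower in TEBs (-1.07, FDR 0.00138). Among 7 tested BH3-only or BH3-like relatives, the largest difference was in Bik. Bik ran from 0.179 to 2.45 RPKM in basal libraries and from 34.1 to 49.9 RPKM in luminal ones, and was lower in basal cells by a log2 difference of -5.79 (SE 0.91, FDR 0.000634) in ducts and -4.93 (SE 0.86, FDR 0.00108) in TEBs. Per length, Bik was thus above Bcl2l11, Bid, Bmf, Pmaip1 and Bbc3 in every luminal library. Becn1, an autophagy gene with a BH3 domain, was lower in basal cells in both structures (-0.87 and -0.76). In TEBs 2 genes of this list were higher in basal cells, Bnip3 (1.98, FDR 0.0205) and Dynll1, a dynein light chain that binds Bim (1.01, FDR 0.00589), and Bad was lower (-0.84, FDR 0.0476). The Bnip3 and Bad calls were lost on leaving out any of 3 and any of 6 single libraries.

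Of 15 genes of the apoptosome, caspases and released mitochondrial factors, 4 were called in ducts and 5 in TEBs, beside 22.3% and 25.1% of all genes. Apaf1 was higher in basal cells (2.23 in ducts, FDR 0.000144; 0.83 in TEBs, FDR 0.0204), and so was Htra2, a mitochondrial protease (1.02 and 0.98). The TEB call of Apaf1 was lost on leaving out any of 5 single TEB libraries (FDR 0.0518 to 0.107), and the ductal call of Htra2 without ductal luminal replicate 3 (FDR 0.0750). Casp8, the initiator caspase that cleaves Bid, was lower in basal cells (-1.67 and -1.09), at 9.30 to 14.1 RPKM in basal and 25.9 to 38.9 RPKM in luminal libraries. In the death receptor arm (9 tested), Tnf was lower in basal cells in both structures (-3.49 and -5.79), with 0 to 124 counts in basal libraries, so the size of its fold rests on few counts. Fadd, the adaptor of the receptors, was lower in ductal basal cells (-2.19, FDR 0.00672), and in TEBs Fas was higher in basal cells (2.47, FDR 0.0185) and Tradd lower (-1.42, FDR 0.0227). The Fas call was lost on leaving out TEB basal replicate 3 or any TEB luminal replicate (FDR 0.0584 to 0.0743), and the Tradd call on leaving out any 1 TEB luminal replicate (FDR 0.0644 to 0.0904). Of 8 inhibitors of apoptosis, Birc3 and Birc6 were lower in TEB basal cells (-1.12 and -0.77), Birc3 with a call lost on leaving out any of 4 single TEB libraries (FDR 0.0510 to 0.0844). Naip6 was lower in ductal basal cells, at 0 to 16 counts, and belongs to a set of near-identical copies, so its value is uncertain.

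Of 14 genes of p53 and its targets, 5 were higher and 3 lower in basal cells in each structure, where 12.6% of all genes were higher and 9.71% lower in ducts and 13.2% and 11.8% in TEBs. Trp63, a basal marker that was also used above to check the labels, led the list (7.92 and 8.42), followed by its relative Trp73, whose luminal libraries held 0 to 21 counts. Phlda3, an inhibitor of Akt, was higher in basal cells (2.73 and 2.98), at 84.4 to 108 RPKM against 10.6 to 17.3 RPKM. Trp53inp1 was lower in basal cells (-3.76 and -3.43), at 5.70 to 13.0 RPKM against 65.9 to 169 RPKM. Of 14 transcription factors and kinases that act on BH3-only genes, Foxo1, a forkhead factor that activates Bcl2l11, was higher in basal cells by 1.67 (SE 0.31, FDR 0.00205) in ducts and 1.19 (SE 0.26, FDR 0.00564) in TEBs. Its levels were 9.40 to 17.6 RPKM in basal and 3.73 to 7.19 RPKM in luminal libraries. Mapk9, which encodes the kinase JNK2, was lower in basal cells (-1.38 and -1.39), Mapk3 was lower in TEB basal cells (-1.67), and Ddit3, the stress-induced CHOP gene, was higher there (2.58, FDR 0.00595). Ddit3 ran from 21.3 to 138 RPKM in TEB basal cells against 9.47 to 11.6 RPKM in TEB luminal cells, and its difference was 1.31 (FDR 0.00484) without the libraries of high mitochondrial share. Of 5 genes of Mcl1 turnover, Usp9x, a deubiquitinase that stabilises Mcl1, was lower in TEB basal cells (-0.55, FDR 0.0321), a call lost on leaving out any of 5 single TEB libraries (FDR 0.0503 to 0.118). Bik, Casp8, Tnf, Phlda3, Trp53inp1 and Mapk9 were called under all 19 alternatives in both structures, and Foxo1 under 19 in ducts and 18 in TEBs.

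**Figure D5:**
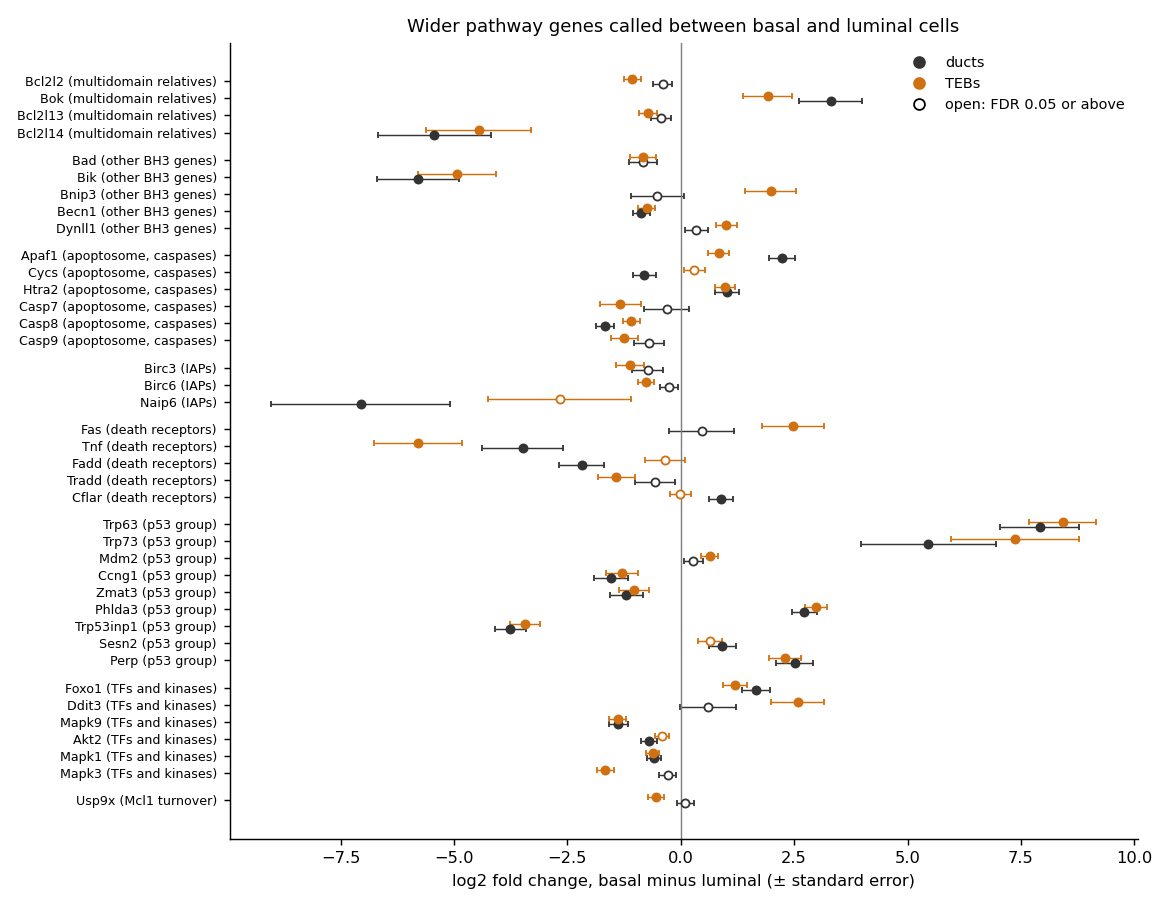
Log2 difference of basal minus luminal cells, with standard errors, for the genes of the 8 wider lists that were called in ducts (dark) or TEBs (orange), with filled points at an FDR below 0.05 by edgeR's quasi-likelihood test. Bik, Tnf and Trp53inp1 lie to the left of 0 and Trp63, Phlda3 and Foxo1 to the right in both structures.

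The genes with patterns most like those of the members called in the same direction in both structures were sought among 7863 genes, by Pearson's r of log2 CPM over the 11 libraries. For Bcl2l1 they were Ctsh, a cathepsin (r = 0.996), and Flot1, a membrane scaffold gene (r = 0.985). For Bcl2l11 they were Pawr (r = 0.979) and Gem (r = 0.977). The libraries fall into basal and luminal clusters, so these values describe the shared difference between cell types and carry no test.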

How the data were processed

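Per the labels and the study's methods, RNA from 11 sorted pools was made into libraries with a polyA kit that does not mark strand and sequenced paired-end. The authors aligned the reads to mm10 with Rsubread, counted them per Entrez gene (featureCounts) on its inbuilt RefSeq annotation, and deposited raw whole-number counts with gene lengths. Each library's own table equalled its column of the series table (11 of 11). Of 27179 identifiers 25275 received a symbol from RefSeq (GRCm38.p6). The authors discarded 1 ductal luminal sample for low cell number.

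From the deposited counts, genes were filtered with filterByExpr (minimum count 10, total 15) and scaled by TMM in edgeR 4.0.16 (limma 3.58.1, R 4.3.3). The quasi-likelihood test was run in 1 model with a mean per group, and the standard error is the absolute log2 fold change over the square root of F. Common biological variation (BCV) was 0.704. The scripts were tested on simulated counts. RPKM uses the deposited length. The alternatives were other scalings, filters and tests (DESeq2 1.42.0), the replicate block, and libraries left out. The 10 members are all named. From each wider list and comparison, called genes were eligible, at most 3 per direction by size, with 2 most alike genes for members called alike in both structures. The members and the lists were chosen with earlier results of these data known.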

Additional observations from a re-analysis of the deposited data

How the results depend on the processing

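Over 19 alternatives, 751 of 798 log2 differences of the members kept their direction and their side of the threshold. Of the rest, 16 lost a call, 9 gained one and 22 turned sign. For the interaction only Bax and Bid enter this tally. The number of members called was 1 in place of 0 by the DESeq2 Wald test for luminal TEB against duct, 1 in place of 0 for the interaction by both the likelihood ratio test and DESeq2, and 2 in place of 4 in ducts without composition normalization. With single libraries left out it was 0 throughout for both comparisons of TEB with duct and for the interaction, 4 to 5 in ducts and 2 to 4 in TEBs. It was 2 without TEB basal replicate 1 or 3 or any TEB luminal replicate.

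Without composition normalization the median of all genes moved from 0.04 to 0.42 for luminal TEB minus duct and from 0.04 to -0.35 for basal minus luminal in TEBs. The luminal differences then turned to 0.20 for Bcl2, 0.16 for Bcl2l1, 0.20 for Mcl1, 0.11 for Bcl2l11 and 0.21 for Pmaip1, all below the shifted median, and that of Mcl1 in TEBs turned to -0.36. Without both libraries above 25% mitochondrial counts, luminal TEB minus duct turned to 0.58 (Bcl2), 0.53 (Bmf) and -0.22 (Bbc3), basal minus luminal in ducts to 0.13 (Bmf) and -0.23 (Bbc3), and in TEBs to -0.0089 (Mcl1) and 0.057 (Bid). With single libraries left out, luminal TEB minus duct spanned -0.78 to 0.56 for Bcl2, -1.45 to 0.51 for Bmf, -0.44 to 0.068 for Pmaip1 and -0.24 to 4.13 for Bbc3. Basal minus luminal spanned -1.84 to 0.13 for Bmf and -0.24 to 4.13 for Bbc3 in ducts, and -0.12 to 0.22 for Mcl1 and -0.37 to 0.059 for Bid in TEBs. The causes were not tested.

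Over all genes, the numbers called for TEB against duct ranged from 57 to 1033 in basal cells (230 in the main test) and from 10 to 1501 in luminal cells (245), and for the interaction from 7 to 907 (77), lowest without composition normalization or 1 library and highest by DESeq2.

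No source says that a replicate number marks a shared pool across groups, so pairing is not established. Same-numbered libraries had correlations of deviations of -0.068 to 0.163 (median 0.069, 11 of 15 above 0 and 4 above 0.1), others -0.163 to 0.137 (median -0.026, 30 pairs), and 7 of 11 libraries correlated best with one of their own number. Deviations were taken from group means, so the ductal luminal libraries mirror each other exactly and the correlations are in part fixed by this. With the replicate number as a block, 0, 0, 4, 4 and 0 members were called in basal and luminal TEB against duct, in ducts, in TEBs and for the interaction. In TEBs the block gained Bak1 (FDR 0.0435) and lost Pmaip1 (FDR 0.0555). Over all genes the block called 125 in place of 245 for luminal TEB against duct and 46 in place of 77 for the interaction.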
